A study of Homo sapiens with 12 samples.

Results

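The transcriptome described here is that of MV3 melanoma cells kept in fresh RPMI medium, the untreated group of the study, which the labels call Ctrl. MV3 is an established human melanoma line whose labels trace it to a lymph node metastasis. The members were chosen by label: all 3 Ctrl libraries were taken out of 12 libraries in 4 groups, and the other groups received media conditioned by macrophage-like THP-1 cells and were not used. The cells of every group were maintained in DMEM with 10% serum, then seeded and held for 3 h in RPMI with 1% serum. The protocol gives 24 h for the conditioned media that followed and no separate time for fresh RPMI. One line was used, and the labels do not say whether the 3 replicates came from separate cultures, so the spread between them may be technical.

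Melanocytes arise from the neural crest and make pigment under a small set of transcription factors. Among these, MITF and SOX10 drive the enzymes and structural proteins of the melanosome, the organelle in which melanin is laid down. Melanoma cells can lose that programme and take on a dedifferentiated state, known for the receptor kinases AXL and EGFR, AP-1 and TEAD factors, and secreted matrix proteins. The genes below are ordered by role: the most abundant transcripts, lineage genes, receptors and their signalling proteins, secreted factors, matrix, surface, growth control, and genes without reads.

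Levels are given as CPM, the reads of a gene scaled to a common total of reads assigned to genes in each library. Where genes are compared with one another, the CPM was divided by the kilobases of exon of the gene (CPM per kb). A gene was called detected at 1 CPM or more in all 3 libraries. By this rule 11555 of 58288 genes were detected, among them 10710 of 19788 protein-coding genes, or 54.1%. No read was counted in any of the 3 libraries for 5483 protein-coding genes, or 27.7%. A count of 0 allows up to 3 counts, which is 0.0293 CPM over the 3 libraries together.

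The 3 libraries held 42921242, 28706025 and 30592714 counts, so 1 CPM rested on 42.9, 28.7 and 30.6 reads. Replicate 1, the deepest, stood apart from the other two in what it contained. The chi-square statistic of the counts per degree of freedom was 22.4 between replicates 1 and 2, 28.3 between 1 and 3, and 4.52 between 2 and 3. Among genes whose longest annotated transcript was at most 1 kb, the median log2 ratio of CPM was -0.329 for replicate 1 over replicate 2 and -0.384 for replicate 1 over replicate 3. Over transcripts above 6 kb the same medians were 0.0711 and 0.117. Short transcripts were thus lower and long ones higher in replicate 1, and the cause was not tested. Transcripts of the mitochondrial genome held 0.03568% of counts in replicate 1 (Wilson 95% interval 0.03512 to 0.03625), 0.005326% in replicate 2 (0.005066 to 0.0056) and 0.004681% in replicate 3 (0.004445 to 0.00493). How mitochondrial reads were filtered and counted is unknown, so these shares describe the deposited counts and not the mitochondrial RNA of the cells. The intervals cover counting error alone. Of 8883 genes at a mean of 10 CPM or more, 8770 (98.7%) had a highest CPM under 1.5 times the lowest.

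**Figure D1:**
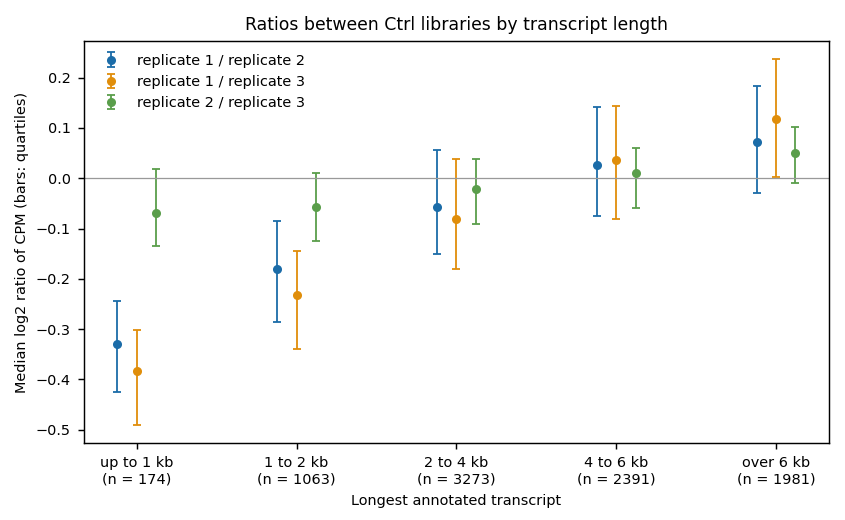
Median log2 ratio of CPM between pairs of Ctrl libraries (vertical axis, bars from the first to the third quartile over genes) for genes grouped by their longest annotated transcript (horizontal axis, number of genes under each group). Both ratios with replicate 1 run from -0.329 and -0.384 for the shortest transcripts to 0.0711 and 0.117 for the longest, while replicate 2 over replicate 3 stays between -0.0698 and 0.0492.

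The label was checked against marker genes of melanocytes and of other cells. Of 7 melanocyte markers, 0 were detected, and their summed level was 0.8709 to 1.538 CPM over the libraries, nearly all of it from MITF. MLANA, TYR and SOX10 had 0 counts in all 3 libraries, PMEL had 1, 0 and 4 counts, TYRP1 0, 2 and 0, and DCT 0, 1 and 0. Apart from MITF, no melanocyte marker thus had more than 5 counts in all. SOX10 and PMEL overlap other genes on the opposite strand, and whether reads were counted by strand is not given, so their counts are less certain. Of 4 markers of neural crest or dedifferentiated melanoma cells, AXL, EGFR and SOX9 were detected, and NGFR had 2, 0 and 0 counts. Of 10 macrophage markers, 0 were detected, 5 had 0 counts (LYZ, FCGR3A, SPI1, AIF1 and TYROBP), and their summed level was 0.4576 to 0.6291 CPM. PTPRC, the pan-leukocyte marker CD45, lay at 0.0877 ± 0.0201 CPM (SD, n = 3). None of the T cell, B cell, endothelial, hepatocyte, neuron or muscle markers was detected. Of 6 fibroblast markers, COL1A1 and PDGFRA were detected while COL1A2, COL3A1, DCN and LUM stayed under 1 CPM. Of 4 epithelial markers, KRT14 was detected at 41.9 ± 2.15 CPM, and EPCAM and CDH1 had 0 counts.

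Several pigment genes share a letter pattern near their start sites, which is shown here for genes that were detected and genes that were not. Of the whole melanocyte lineage list, 25 of 33 genes were not detected, whether or not they carry the pattern. CATGTG is a form of the E-box (CANNTG) that MITF is known to bind. Either CATGTG or its reverse complement CACATG was present in 3897 of 35116 RefSeq promoters (11.1%), each running from 250 bases before to 50 bases after a start site on GRCh38.p14. Among promoters of protein-coding genes of the count table the share was 8.87%. Promoters were listed for 25 of the 33 genes of the melanocyte lineage list, and 14 of their 41 promoters (34.1%) held the pattern. Among lineage genes not detected it was present in 11 of 28 promoters and among those detected in 3 of 13. For the dedifferentiated state list, promoters were listed for only 19 of 34 genes, and 5 of their 33 promoters held it. The windows below read 5′ to 3′ on the strand of the gene, with the pattern in capitals.
TYR: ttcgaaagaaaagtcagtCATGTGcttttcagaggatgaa
TYRP1: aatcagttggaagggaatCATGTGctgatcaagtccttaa
DCT: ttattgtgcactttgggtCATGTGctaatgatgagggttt
OCA2: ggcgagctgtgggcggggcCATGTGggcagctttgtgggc
GPR143: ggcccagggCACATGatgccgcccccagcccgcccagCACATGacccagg
MC1R: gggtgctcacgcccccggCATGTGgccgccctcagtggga
The windows are chr11:89177753-89177792 (plus strand) for TYR, chr9:12693223-12693262 (plus) for TYRP1, chr13:94479795-94479834 (minus) for DCT, chr15:28099448-28099487 (minus) for OCA2, chrX:9765868-9765917 (minus) for GPR143 and chr16:89918780-89918819 (plus) for MC1R. A longer run, TCATGTG or its reverse complement CACATGA, was present in 2.92% of all promoters and in 8 of the 41 promoters of the lineage list. Among promoters of protein-coding genes of the count table, the longer run was present in 2.33%. It overlaps the pattern above in the TYR, TYRP1, DCT and GPR143 windows and not in the OCA2 and MC1R windows. TYR, TYRP1, DCT and OCA2 were not detected, whereas GPR143 and MC1R were, so the letters were present in both kinds of gene. A match is a description of the sequence and shows no binding.

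Promoter composition followed the level class of the gene. The median number of CG dinucleotides in the 300-base promoter was 7 for protein-coding genes with 0 counts, 10 under 0.1 CPM, 16 from 0.1 to 1 CPM, 23 from 1 to 10 CPM, 26 from 10 to 100 CPM, 27 from 100 to 1000 CPM and 26.5 from 1000 CPM upwards. Over all promoters it was 14, and over promoters of protein-coding genes of the count table it was 21. The melanocyte lineage list had a median of 6, the dedifferentiated state list one of 20, and the matrix list one of 27. Genes that share a family share promoter letters, so these promoters are not independent of one another. The medians are over promoters, which were listed for 14693 of 19775 protein-coding gene symbols and for 3657 of 5481 with 0 counts. For the lineage, dedifferentiated state and matrix lists they were listed for 25 of 33, 19 of 34 and 40 of 57 genes.

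The transcriptome was spread over many genes. The 10, 100 and 1000 genes with most counts in a library held 4.387 ± 0.0204%, 16.06 ± 0.191% and 49.6 ± 0.231% of its counts (SD, n = 3). Among protein-coding genes, 69 had a mean of 1000 CPM or more and held 13.2% of counts, and 2488 lay between 100 and 1000 CPM and held 59.0%. A further 6190 lay between 10 and 100 CPM and 2084 between 1 and 10 CPM. Below 1 CPM, 1463 lay between 0.1 and 1 CPM and 2011 had reads but a mean under 0.1 CPM.

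By total reads the most abundant transcript was VIM, which encodes the intermediate filament vimentin, with 6650, 6416 and 6504 CPM in replicates 1, 2 and 3. The glycolytic enzyme gene ENO1 had 6063, 5769 and 6155 CPM, and the hyaluronan receptor gene CD44 had 5428, 4214 and 4105 CPM. VIM and ENO1 were even across the libraries, while CD44 was higher in replicate 1 and the other two nearly coincided. The other 17 of the 20 genes highest in CPM were GAPDH, HSP90AA1, EIF4G2, ACTB, HSPA8, ACTG1, FN1, AHNAK, FLNA, DYNC1H1, TUBB, AXL, PKM, PABPC1, LDHA, EEF2 and MYH9. They span glycolysis (GAPDH, PKM, LDHA), chaperones (HSP90AA1, HSPA8), translation (EIF4G2, PABPC1, EEF2), and actin, tubulin and their motors or crosslinkers (ACTB, ACTG1, TUBB, FLNA, MYH9, DYNC1H1). FN1 and AXL stand among them as a secreted matrix protein and a receptor kinase, with FN1 at 3366 ± 52.3 CPM.

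Per kilobase the order changed towards small transcripts. TMSB10, a small actin-binding protein, ranked first at 3369 ± 767 CPM per kb, with 1239, 1818 and 1956 CPM in the 3 libraries. Its values in replicates 2 and 3 lay close together and replicate 1 lay well below, as for other short transcripts. FTL, the ferritin light chain, followed at 1703 ± 249, GAPDH at 1524 ± 132, VIM at 1265 ± 23.0, ACTG1 at 1149 ± 40.9, ENO1 at 1136 ± 38.2 and ACTB at 1081 ± 31.8 CPM per kb. S100A6, a calcium-binding protein, stood at 800 ± 146 and LGALS1, the galactoside-binding lectin galectin-1, at 724 ± 126 CPM per kb. Also among the first 20 were HSPA8, HSP90AA1, TUBB, RPL8, HSP90AB1, EEF2, AXL, HDGF, PABPC1 and TUBB4B. AXL held rank 17 at 490 ± 70.5 CPM per kb, the only cell surface receptor among them. Its identifier is ENSG00000167601.11 and it lies at chr19:41219203-41261766 on the plus strand of GRCh38, VIM (ENSG00000026025.15) at chr10:17228259-17237593 and TMSB10 (ENSG00000034510.5) at chr2:84905625-84906675. Part of the sequence also occurs in another gene for TUBB (23.9% of 50-base stretches), VIM (20.7%), FTL (18.3%) and GAPDH (17.7%). The same holds for HSP90AB1 (16.6%), HSP90AA1 (14.0%) and TUBB4B (11.0%), so the levels of these genes are less certain. The shared part was smaller for the rest of the first 20. With the longest annotated transcript in place of all exons, 15 of these 20 genes remained in the first 20. AXL was not one of them: it then held rank 32, while CD44 moved from rank 23 to rank 16. Which surface receptor gene stands in the first 20 thus depends on the length used.

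Several genes that encode abundant proteins had modest counts here, and for some a large part of the sequence also occurs in other genes. EEF1A1, translation elongation factor 1 alpha, had 445.9, 452.4 and 469.2 CPM, and 22.5% of its 50-base stretches were found in another annotated gene. FTH1, the ferritin heavy chain, had 113 ± 15.3 CPM with 57.4% of its stretches shared, and TMSB4X had 44.4 ± 7.51 CPM with 10.2% shared. RPS27 had 2.12 ± 0.101 CPM with 17.8% shared, and EEF2, with 0% shared, had 2083 ± 70.9 CPM. These genes were chosen after their values were seen. How the deposited counts treated reads with several equal matches is not given in the sources used here, and its part in these levels was not tested. The ribosomal protein genes together held 1.944%, 2.375% and 2.485% of counts, lowest in replicate 1.

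Ribosomal protein and elongation factor genes are known for a pyrimidine run at the transcript start, the TOP element, through which their translation is controlled. A C followed by at least 4 letters that are C or T, beginning within 5 bases of the start, was present in 54 of 79 promoters of ribosomal protein genes (68.4%; 63 of 80 genes matched) and in 21.1% of all promoters. The starts of 3 genes of the translation machinery are shown as examples, with the run in capitals. Each window holds 15 bases on either side of the start, read on the strand of the gene.
EEF2: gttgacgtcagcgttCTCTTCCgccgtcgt
RPS6: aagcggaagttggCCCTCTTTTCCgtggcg
RPLP0: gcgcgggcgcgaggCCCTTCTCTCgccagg
They lie on GRCh38.p14 at chr19:3985449-3985478, chr9:19380222-19380251 and chr12:120201097-120201126, all on the minus strand.

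**Figure D2:**
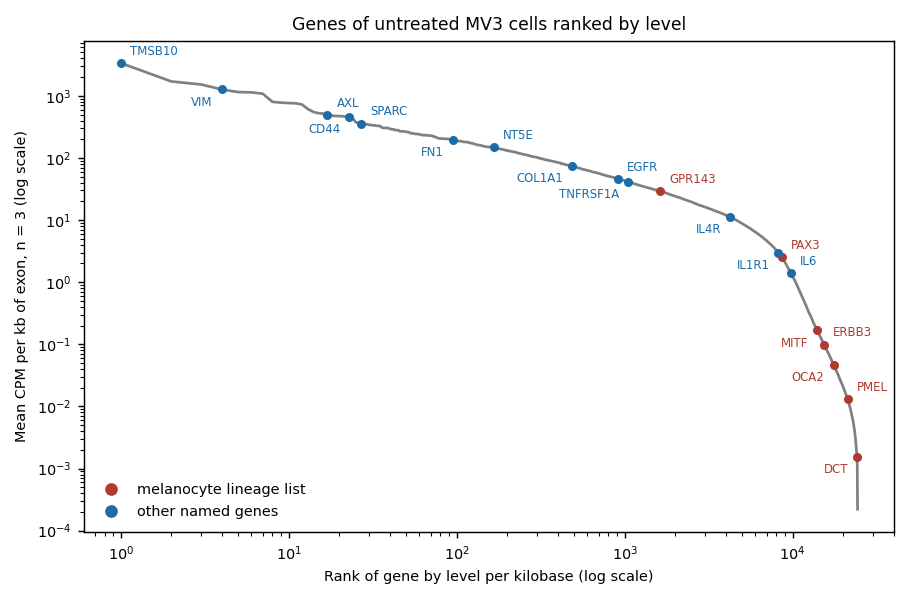
Mean CPM per kb of exon (vertical log axis, n = 3 Ctrl libraries) against the rank of the gene (horizontal log axis) for all genes with at least 1 count and an annotated length, with named genes as points. Of the plotted genes of the melanocyte lineage list (red), GPR143 at 29.2 and PAX3 at 2.53 CPM per kb lie above 1 and the others below 0.2, while VIM, AXL and CD44 lie among the first 23 genes.

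Of the 33 genes of the melanocyte lineage list, 8 were detected (24.2%, against 54.1% of protein-coding genes) and 12 had 0 counts in all 3 libraries. The median of the list was 0.0232 CPM, against 3.82 CPM over all protein-coding genes. In a bulk library, fewer cells with a transcript and less of it in each cell cannot be told apart. Among transcription factors, MITF, the regulator of pigment genes, had 1.514, 0.7664 and 1.34 CPM (65, 22 and 41 counts), so it passed 1 CPM in replicates 1 and 3 and not in replicate 2. SOX10 had 0 counts, as had TFAP2B and TFEC. PAX3, a neural crest factor that acts upstream of MITF, was detected at 18.9, 20.69 and 20.59 CPM, and TFAP2A, another neural crest factor, at 12.9 ± 1.28 CPM. PAX3 and TFAP2A were thus present in each library while SOX10, which overlaps POLR2F on the opposite strand, was not counted in any.

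Among pigment enzymes and melanosome proteins, the genes of melanin synthesis were silent and those of organelle transport were not. TYR and MLANA had 0 counts, TYRP1 and DCT the few counts given above, and PMEL, which forms the fibrils of the melanosome, 1, 0 and 4 counts. PMEL overlaps CDK2 on the opposite strand, so its low counts are less certain. The melanosomal transporter genes SLC45A2 and OCA2 lay at 0.0567 ± 0.0191 and 0.155 ± 0.0464 CPM, and SLC24A5 had 0, 1 and 0 counts. MLPH, which links melanosomes to the motor protein myosin Va, had 147.2, 141.7 and 150.0 CPM. Its partner RAB27A had 24.37, 26.44 and 26.87 CPM, and RAB38, a small GTPase of melanosome biogenesis, 17.59, 20.2 and 19.38 CPM. GPR143, the melanosomal receptor altered in ocular albinism, had 75.51, 72.01 and 70.18 CPM and was the highest member of the list per kilobase (29.2 ± 1.09). GPNMB, a melanosomal glycoprotein also made by other cells, had 43.5 ± 4.12 CPM.

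Among receptors of the lineage, MC1R, the melanocortin receptor, was detected with 47.79, 41.07 and 46.45 CPM. For MC1R, 43.4% of the 50-base stretches also occur in another annotated gene, so its level is uncertain. KIT, the stem cell factor receptor needed for melanocyte survival, had 0 counts, as had TRPM1 and CDH1. EDNRB, the endothelin receptor, had 2, 0 and 0 counts, and ERBB3 lay at 0.89 ± 0.217 CPM. Of 8 further melanocytic genes 0 were detected: S100B, MIA, GPM6B and CDH19 had 0 counts, BCL2A1 had 16, 22 and 13, S100A1 4, 1 and 3 and CAPN3 1, 0 and 0 counts. S100B and MIA, used as serum markers of melanoma, were therefore not counted in these cells, although 55.6% of the stretches of MIA are shared with another gene.

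Of the 34 genes of the dedifferentiated state list, 28 were detected (82.4%, against 54.1%), and 16 lay at 100 CPM or more, against 1 of the melanocyte lineage list. The median was 89.5 CPM. Both lists were drawn up with earlier results of these data known, so the contrast between them is a description. Among surface receptors AXL led with 2946, 2314 and 2319 CPM. EGFR had 671.2, 543.4 and 508.5 CPM, the 5′-nucleotidase gene NT5E (CD73) 716.7, 643.0 and 647.1 CPM, and NRP1, a coreceptor for VEGF and semaphorins, 942.3, 665.4 and 663.4 CPM. For each of these 4 genes replicate 1 was the highest, and replicates 2 and 3 lay closer to each other than to it. The collagen and laminin receptor subunits ITGA2 and ITGA3 had 378 ± 64.5 and 381 ± 61.9 CPM, and F2RL1, a protease-activated receptor, 19.0 ± 4.26 CPM. PDGFRB had 1.421, 0.6967 and 1.831 CPM and passed the threshold in replicates 1 and 3. CDH2, the N-cadherin that often replaces E-cadherin in invasive cells, had 1, 3 and 1 counts, NGFR 2, 0 and 0, and ROR2, a receptor for WNT5A, 0.

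Among transcription factors of that state, the AP-1 genes FOSL1 and JUN had 283 ± 19.2 and 177 ± 17.5 CPM. TEAD1 and TEAD4, the DNA-binding partners of YAP and TAZ, had 624 ± 31.4 and 53.0 ± 2.67 CPM. AJUBA, a LIM protein of the Hippo pathway, had 96.97 ± 5.27 CPM. Of the mesenchymal repressor genes, ZEB1 had 140.5, 155.5 and 144.8 CPM, ZEB2 77.84, 72.95 and 71.81 CPM, and SNAI2 62.93, 63.89 and 66.09 CPM. TWIST2 had 20.4 ± 1.99 and TWIST1 8.13 ± 1.49 CPM, while SNAI1 lay at 0.435 ± 0.123 CPM. Per kilobase these genes were unequal, from SNAI2 at 19.0 ± 0.478 and ZEB1 at 16.99 ± 0.893 down to ZEB2 at 2.96 ± 0.128 and SNAI1 at 0.258 ± 0.0732. SOX9, a neural crest factor, had 66.1, 56.23 and 53.71 CPM, whereas SOX2 had 0 counts. SOX9 was therefore the one of SOX2, SOX9 and SOX10 with reads in these libraries.

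The 10 secreted and cytoskeletal genes of the list were all detected. Beside VIM they included TGFBI, a matrix protein induced by TGF-beta, with 904.0, 658.4 and 731.1 CPM. The YAP target genes CYR61 and CTGF had 504 ± 41.2 and 104 ± 13.9 CPM. LOXL2, a collagen crosslinking enzyme, had 518 ± 76.2 CPM. Per kilobase the signalling ligands were lower than these: WNT5A at 11.1 ± 2.64, GDNF at 4.26 ± 0.38, NRG1, a ligand of ERBB3 and ERBB4, at 4.19 ± 0.461 and TGFB2 at 0.272 ± 0.0676, against 44.2 ± 5.95 CPM per kb for CTGF.

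**Figure D3:**
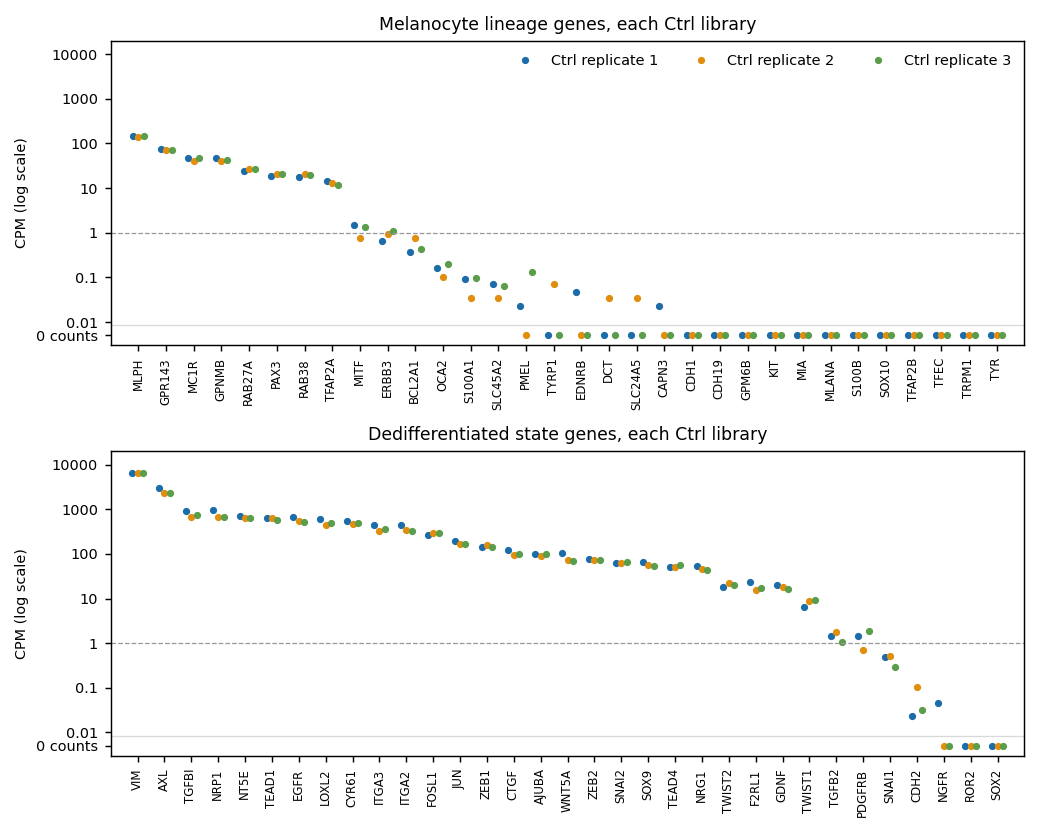
CPM of genes of the melanocyte lineage list (upper panel, 32 genes drawn) and of the dedifferentiated state list (lower panel, 33 genes drawn) in each of the 3 Ctrl libraries, on log axes with genes ordered by mean and the dashed line at 1 CPM. Points on the lowest line stand for 0 counts: 12 lineage genes have all 3 points there, against ROR2 and SOX2 in the lower panel.

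Receptors set which macrophage signals a cell could sense, and they were uneven by family. Of 67 receptors and coreceptors for macrophage cytokines, chemokines and microbial patterns, 34 were detected (50.7%, against 54.1% of protein-coding genes) and 18 had 0 counts. The receptors for TGF-beta family ligands were all detected, 9 of 9, and those for TNF family ligands 7 of 9. For chemokines and colony-stimulating factors 0 of 9 and 0 of 4 were detected.

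TNFRSF1A, the receptor through which soluble TNF signals in most tissues, had 183.2, 153.1 and 158.3 CPM, and TNFRSF1B, the second TNF receptor, had 0 counts. LTBR, the lymphotoxin beta receptor, had 220 ± 17.6 CPM and TNFRSF12A, the TWEAK receptor, 142 ± 11.4 CPM. Per kilobase TNFRSF12A was the highest of the family at 76.6 ± 6.16, followed by TNFRSF1A at 41.2 ± 4.02. The TRAIL death receptor genes TNFRSF10B and TNFRSF10A had 108 ± 10.0 and 25.03 ± 1.17 CPM, and TNFRSF21 had 66.8 ± 7.90 CPM. FAS was barely detected, with 1.375, 1.184 and 1.013 CPM, and CD40 was not, at 0.268 ± 0.144 CPM.

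In the interleukin 1 family, the signalling receptor IL1R1 had 23.07, 19.19 and 20.4 CPM and its coreceptor IL1RAP 12.12, 11.57 and 11.24 CPM, so both chains were counted in each library. The decoy receptor IL1R2 had 1, 0 and 2 counts, and the interleukin 33 receptor IL1RL1 lay at 0.59 ± 0.0551 CPM. The interleukin 18 receptor chains IL18R1 and IL18RAP had 1, 1 and 1 and 0 counts.

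For type I interferon, IFNAR1 had 76.51, 71.55 and 65.64 CPM and IFNAR2 8.17 ± 0.459 CPM. Of the 50-base stretches of IFNAR2, 77.5% also occur in another annotated gene, so its level is uncertain. For interferon gamma, IFNGR1 had 22.97, 20.41 and 19.94 CPM and IFNGR2 18.29, 19.89 and 19.87 CPM. The ranges of these 2 chains were close, at 6.44 ± 0.498 and 6.54 ± 0.311 CPM per kb. IFNLR1, the chain specific to interferon lambda, had 0 counts.

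IL4R pairs with IL13RA1 in a receptor for interleukins 4 and 13. With the common gamma chain IL2RG it forms a receptor for interleukin 4. IL4R had 70.55, 61.73 and 65.28 CPM and IL13RA1 68.96, 59.95 and 57.79 CPM, whereas IL2RG had 0 counts. The decoy receptor IL13RA2 had 50.25, 54.41 and 56.32 CPM and was the highest of these genes per kilobase, at 33.0 ± 1.91 against 14.2 ± 1.36 for IL13RA1 and 11.2 ± 0.753 for IL4R. Interleukin 10 needs IL10RA and IL10RB: IL10RB had 16.7 ± 1.64 CPM and IL10RA 0 counts. The shared part of the sequence was 49.0% for IL2RG and 36.3% for IL10RB.

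In the interleukin 6 family the common signal transducer IL6ST (gp130) had 291.8, 240.0 and 225.9 CPM and the oncostatin M receptor OSMR 118.4, 96.36 and 90.51 CPM, both highest in replicate 1. IL6R was detected at 18.7 ± 1.86 and LIFR at 4.33 ± 0.864 CPM, and IL11RA had 12, 2 and 2 counts. Among interleukin 17 receptors IL17RA and IL17RC had 35.9 ± 4.85 and 10.1 ± 1.43 CPM, and IL17RD 0.262 ± 0.0760 CPM.

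The signalling chains TGFBR2 and TGFBR1 had 294.4, 256.6 and 260.7 CPM and 285.2, 222.0 and 201.9 CPM. TGFBR3, the coreceptor betaglycan, had 49.1 ± 7.48 CPM. Of the BMP and activin receptors, BMPR2 stood at 202 ± 35.4, ACVR1 at 56.9 ± 7.16, BMPR1A at 24.9 ± 3.52, ACVR1B at 24.4 ± 2.62, ACVR2A at 19.5 ± 5.44 and ACVR2B at 7.81 ± 1.56 CPM. Replicate 1 was the highest library for each of these 9 genes.

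The chemokine receptors CXCR1, CXCR2, CXCR3, CXCR4, CCR2 and CCR7 had 0 counts, CCR1 had 1, 2 and 0, and the scavenging receptor ACKR3 0, 0 and 1. The receptors for macrophage and granulocyte growth factors were as low: CSF2RA, CSF2RB and CSF3R had 0 counts and CSF1R 0, 0 and 2. Among pattern recognition genes, LY96 (MD-2, the lipopolysaccharide-binding partner of TLR4) was detected at 5.22 ± 0.335 CPM and TLR6 at 4.08 ± 0.489 CPM. TLR4 itself lay at 0.246 ± 0.0144 CPM, its coreceptor CD14 at 0.194 ± 0.075, TLR3 at 0.621 ± 0.264 and TLR1 at 0.249 ± 0.0655 CPM. TLR2, TLR8 and TLR9 had 0 counts, and TLR5 and TLR7 had 2 counts and 1 count in all.

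**Figure D4:**
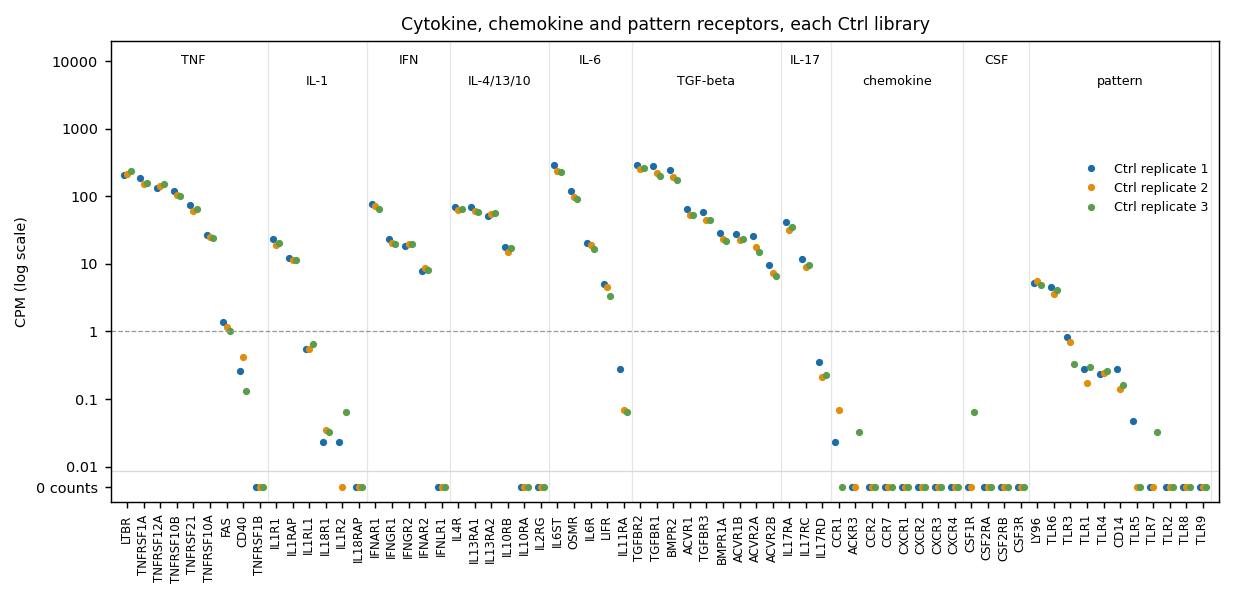
CPM (vertical log axis) of 66 receptors for macrophage cytokines, chemokines and microbial patterns in each of the 3 Ctrl libraries, grouped by ligand family, with the dashed line at 1 CPM and the lowest line for 0 counts. TNF, interferon, interleukin 6 and TGF-beta receptors lie mostly above the dashed line, up to 294.4 CPM, and the chemokine and colony-stimulating factor receptors drawn lie below it.

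Of 30 genes of the proteins that carry these signals, 27 were detected (90%, against 54.1%). All 16 NF-kB pathway genes were, led per kilobase by IRAK1 (125 ± 10.6), BIRC2 (43.9 ± 1.33), RELA (21.9 ± 0.868) and NFKB1 (13.7 ± 0.636 CPM per kb). IRAK1 is the kinase of the interleukin 1 and Toll-like receptor pathways, and RELA and NFKB1 encode the p65 and p50 subunits. Of 14 JAK and STAT genes 11 were detected, among them JAK1 (55.9 ± 3.81), STAT3 (17.6 ± 0.339) and STAT6 (11.5 ± 0.384 CPM per kb). In CPM, JAK1 had 380.3, 343.4 and 335.0 and STAT3 157.8, 151.9 and 154.2. JAK3, which signals from IL2RG, had 0, 0 and 2 counts.

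Of 22 cytokine and chemokine ligands, 13 were detected (59.1%, against 54.1%). Per kilobase TGFB1 led at 27.4 ± 1.65, then the neutrophil attractant CXCL1 at 24.9 ± 4.64, the angiogenic factor VEGFA at 9.42 ± 2.12 and the chemokine CXCL8 at 8.24 ± 0.206 CPM per kb. The ranges of TGFB1 and CXCL1 overlapped. CXCL8 had 19.24, 18.32 and 18.63 CPM, while the receptors for it, CXCR1 and CXCR2, had 0 counts. TNF and CCL2 each had 0, 1 and 0 counts, GDF15 2, 0 and 0, and CSF3 5, 1 and 3. CXCL10, an interferon-induced chemokine, and CSF2 had 0 counts.

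Matrix genes were abundant: 44 of 57 were detected (77.2%, against 54.1%), 30 of them at 100 CPM or more, and their summed level was 15930 to 18450 CPM. In the part of the list for glycoproteins and proteoglycans, where the lectin gene LGALS1 was also placed, LGALS1 stood first per kilobase. SPARC, which binds collagen, followed at 355 ± 44.5, then FN1 at 194 ± 3.02 and the laminin chain LAMC1 at 107 ± 15.4 CPM per kb. SPARC had 1962, 1571 and 1612 CPM and FN1 3309, 3411 and 3377 CPM. FN1 was level over the libraries whereas SPARC and LAMC1 were highest in replicate 1. The genes of osteopontin (SPP1) and fibulin-1 (FBLN1) had 0 counts, and the proteoglycans BGN and DCN 0, 0 and 1 each.

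Collagen genes were expressed by chain. COL6A2 (91.1 ± 7.69), COL6A1 (85.6 ± 11.96), COL1A1 (73.4 ± 10.8) and COL12A1 (14.6 ± 0.98 CPM per kb) led. Type I collagen is normally built of chains from COL1A1 and COL1A2. COL1A1 had 836.1, 625.9 and 700.7 CPM, whereas COL1A2 had 3, 2 and 2 counts (0.0683 ± 0.00255 CPM). None of the 50-base stretches of COL1A2 is shared with another gene. COL4A1 and COL4A2, the main chains of basement membrane collagen, had 0 counts in all 3 libraries. Type VI collagen also was uneven, since COL6A3 had 4.61 ± 0.626 CPM, or 0.235 ± 0.0319 CPM per kb.

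All 8 genes for crosslinking and synthesis were detected, led per kilobase by LOXL2 (90.7 ± 13.3), the lysyl hydroxylase PLOD1 (55.2 ± 7.18), the collagen chaperone SERPINH1 (47.2 ± 3.09) and PLOD2 (37.2 ± 5.2 CPM per kb). Of 14 proteases and inhibitors 12 were detected. PLAU, the urokinase, stood at 127 ± 6.31, the membrane-bound metalloproteinase MMP14 at 99.4 ± 10.8 and the inhibitor TIMP2 at 69.9 ± 6.46 CPM per kb. TIMP3 had 2, 0 and 1 counts and MMP9, a secreted gelatinase, 0.

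Of 82 surface genes 55 were detected (67.1%, against 54.1%), 30 of them at 100 CPM or more. Integrin subunits were led by ITGB1 (232 ± 17.3) and ITGA6 (182 ± 25.4 CPM per kb), the chains of a laminin receptor, then ITGA2 and ITGA3. ITGB1 had 1513, 1355 and 1318 CPM. ITGB2, the chain shared by leukocyte integrins, had 3, 1 and 2 counts and ITGA9 2, 0 and 2. Among growth factor receptors AXL (490 ± 70.5) exceeded MET, the hepatocyte growth factor receptor (67.3 ± 9.35), EPHA2 (52.0 ± 5.57) and EGFR (45.9 ± 6.84 CPM per kb). Of the other two receptors of its family, TYRO3 had 34.7 ± 3.55 CPM and MERTK 0, 1 and 1 counts. KIT, FLT1 and FGFR4 had 0 counts, KDR had 2, 1 and 1, ERBB4 5, 2 and 0 and FGFR3 0, 0 and 1 counts.

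Adhesion molecules were led by CD44 (458 ± 73.4), ALCAM (150 ± 17.5), BSG (122 ± 8.50) and the tetraspanin CD151 (110 ± 5.61 CPM per kb). MCAM, named for its discovery in melanoma, had 72.5, 65.14 and 66.88 CPM. CDH1 and VCAM1 had 0 counts, THY1 had 0, 1 and 4 and NCAM1 3, 1 and 1 counts. All 9 proteoglycan and glycolipid genes were detected, led by SDC4 (66.3 ± 8.52), SDC1 (61.7 ± 1.67), the melanoma proteoglycan CSPG4 (13.4 ± 2.25) and SDC3 (13.2 ± 0.982 CPM per kb). NT5E (148 ± 9.14) and ANPEP (137 ± 6.58 CPM per kb) led the ectoenzymes. DPP4 had 0 counts and ENTPD1, which makes the AMP that NT5E uses, 0, 0 and 1.

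Among checkpoint ligands, PVR (52.6 ± 4.45), NECTIN2 (21.9 ± 0.826), CD47, the signal against phagocytosis (18.2 ± 1.80), and PDCD1LG2 (11.5 ± 1.02 CPM per kb) were the highest. CD274 (PD-L1) had 24.35, 19.68 and 18.53 CPM. The costimulatory ligands CD80 and CD86 had 0 counts and LGALS9 2, 1 and 1.

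Of 26 antigen presentation genes 15 were detected (57.7%, against 54.1%): 15 of 16 for class I and 0 of 10 for class II. The endoplasmic reticulum chaperone CALR (354 ± 24.2), B2M (69.5 ± 6.81) and HLA-C (29.4 ± 1.56 CPM per kb) were among the highest of class I. B2M had 375.2, 451.6 and 441.0 CPM. HLA-F had 1, 1 and 1 counts. The class II regulator CIITA had 2, 0 and 2 counts, CD74 2, 1 and 3, HLA-DMA 4, 1 and 4 and HLA-DMB 1, 0 and 0. HLA-DRA, HLA-DRB1, HLA-DPA1, HLA-DPB1, HLA-DQA1 and HLA-DQB1 had 0 counts.

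All 40 growth control genes were detected, against 54.1% of protein-coding genes. CCNB1 (194 ± 12.6), PCNA (153 ± 15.2), TOP2A (135 ± 5.10) and CCND1 (128.2 ± 10.0 CPM per kb) led the cyclins, kinases and replication genes. MKI67, the proliferation marker, differed between libraries, with 356.9, 729.9 and 645.1 CPM and its lowest value in replicate 1, whereas the median long transcript was higher there. NRAS (59.7 ± 1.97), HRAS (41.3 ± 6.56), the ERK-dependent factor ETV5 (29.6 ± 0.731) and MAP2K1 (25.01 ± 0.943 CPM per kb) led the RAS and MAPK genes. Of the brakes, RB1 stood at 21.3 ± 1.12, CDKN1B at 16.3 ± 0.987 and MDM2 at 5.26 ± 1.05 CPM per kb. The 9p21 region, often deleted in melanoma, was expressed: MTAP had 45.53, 46.82 and 47.92 CPM, CDKN2A 11.86, 13.76 and 13.86 CPM and CDKN2B 2.679, 3.066 and 2.517 CPM. Counts alone do not tell whether these transcripts are intact.

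Cancer-testis antigens are normally confined to germ cells and reappear in tumours. Of 15 listed, 4 were detected (26.7%, against 54.1%): MAGEA1, PRAME, MAGEA6 and MAGEA3. MAGEA1 had 148.5, 149.8 and 154.5 CPM and PRAME 121.8, 127.5 and 128.5 CPM, each within a narrow range over the libraries. MAGEA6 and MAGEA3 share 53.9% and 56.5% of their stretches, so the split of 62.7 ± 1.24 and 2.02 ± 0.324 CPM between them is uncertain. MAGEA4, CTAG1B, CTAG2, GAGE1, SSX2 and XAGE1B had 0 counts, although most of the sequence of CTAG1B, SSX2 and XAGE1B is shared. MAGEC1, MAGEB2 and SSX1 had 1, 5 and 8 counts in all.

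HOX genes, which keep a record of the position along the body axis, were detected in each of the 4 clusters. Of 39 HOX genes 15 were detected (38.5%, against 54.1% of protein-coding genes): 2 of 11 in cluster A, 5 of 10 in B, 5 of 9 in C and 3 of 9 in D. Per kilobase HOXB7 (11.9 ± 1.84), HOXC8 (10.4 ± 0.22), HOXD13 (7.41 ± 0.139) and HOXC10 (7.22 ± 0.933 CPM per kb) led. In CPM they had 14.91, 19.4 and 20.1, then 19.27, 20.1 and 19.68, then 16.45, 16.41 and 16.96, and last 14.61, 18.95 and 16.96 in the 3 libraries. The ranges of HOXB7 and HOXC8 overlapped per kilobase, as did those of HOXD13 and HOXC10. HOXC6, HOXD8, HOXB4, HOXC4 and HOXB2 had 11.5 ± 0.288, 10.2 ± 1.04, 9.77 ± 1.10, 9.48 ± 0.421 and 8.71 ± 1.23 CPM. HOXB3, HOXD9, HOXB6, HOXA10 and HOXC9 had 4.92 ± 0.875, 4.08 ± 0.611, 2.14 ± 0.258, 2.13 ± 0.155 and 2.13 ± 0.252 CPM. In cluster D, HOXD13 at the end of the cluster was detected while HOXD10, HOXD11 and HOXD12 next to it had 18, 0 and 3 counts in all. Cluster A was low throughout, with a summed level of 7.898 to 8.465 CPM.

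**Figure D5:**
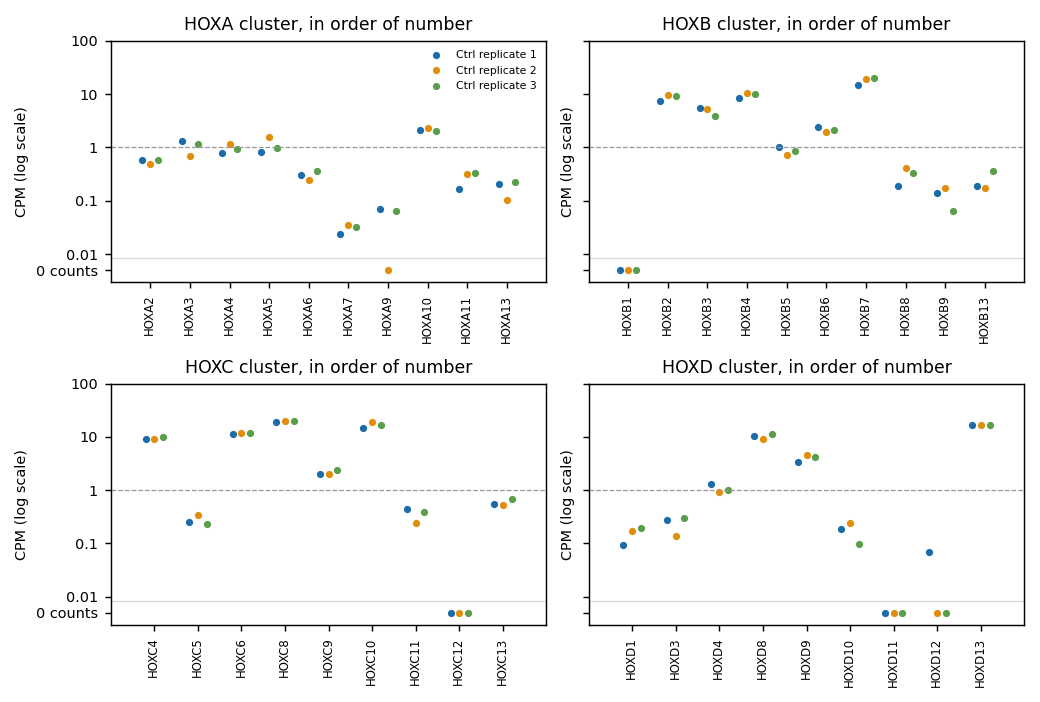
CPM (vertical log axes) of 38 HOX genes of clusters A to D in the 3 Ctrl libraries, in order of their number, with the dashed line at 1 CPM and the lowest line for 0 counts. No HOXA gene drawn exceeds 2.299 CPM, while HOXB7, HOXC8, HOXC10 and HOXD13 reach 14.61 to 20.1 CPM.

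Whole gene families were without detected members. Genes were grouped by the letters at the start of their symbol, and of 377 such families with 8 or more protein-coding members, 28 had no gene detected. These 28 families held 756 genes, of which 664 had 0 counts. The olfactory receptors were the largest, with 382 genes and 353 at 0 counts. The beta-defensins (DEFB, 39 of 39), the PRAMEF genes (22 of 22), the interferon alpha genes (IFNA, 13 of 13), the alpha protocadherins (PCDHA, 13 of 13) and the GAGE genes (13 of 13) had 0 counts throughout. Taste receptors (TAS, 27 genes), UDP-glycosyltransferases (UGT, 22), late cornified envelope genes (LCE, 18), kallikreins (KLK, 15) and the CCR genes (10, mostly CC chemokine receptors) had some reads and no gene detected. How reads with several equal matches were treated is not given. For families whose members share sequence, 0 counts therefore need not mean that the transcripts were absent.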

How the data were processed

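RNA of MV3 cells was sequenced as stranded mRNA libraries with single reads of 50 nt in 2 runs, per the labels' protocols. Build hg38 is listed in the submitters' processing notes, together with STAR 2.5.4b and Bowtie2 2.2.3 (aligners), FastQC 0.11.7, Trimmomatic 0.36, DESeq2 1.20.0 and R 3.3.3 and 3.5.0. Which tool counted the reads, with which annotation and whether by strand, is not given in the sources used here, so reads of genes that overlap on opposite strands (AXL and EGFR with antisense genes, PMEL with CDK2, SOX10 with POLR2F) cannot be told apart. The authors deposited raw counts per gene, and their per-sample files equalled the table for 3 of 3 Ctrl libraries. Symbols came from the authors' second deposited table, whose log2-like values were not used.

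CPM was the count over the library total. Exon lengths came from GENCODE release 29 (58025 of 58288 identifiers matched without version), promoters from RefSeq. No group was compared and no test was run. Alternatives used edgeR 4.0.16 and DESeq2 1.42.0 in R 4.3.3, the rest Python 3.11.15. The intervals and floors hold for counting error alone, because the labels name no molecular identifiers. The cells and the gene lists were chosen with earlier results of these data known. Named were the 20 highest genes per kilobase and in CPM, the 10 most variable between libraries, all members of the lineage, dedifferentiated and receptor lists, in the other lists the 4 highest per kilobase of a subgroup and members under 0.1 CPM, detected HOX genes, and the largest families with no detected member. Other genes were named after their values were seen. BAGE had no entry under that symbol and was left out. Some genes that fall under these rules are not reported here.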

Additional observations from a re-analysis of the deposited data

How the results depend on the processing

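No paired analysis was possible because no groups were compared. The count of detected genes was 11555 with library totals, TMM library sizes and DESeq2 size factors, 12365 at a threshold of 0.5 CPM, 10805 at 2 CPM and 11613 to 11655 with 1 library left out, 11619 of them without replicate 1. Genes with 0 counts numbered 34889 to 35812 with 1 library left out, against 33795. Without a threshold, a single read in any library would count 21 genes of the melanocyte lineage list in place of 8, 20 cytokines in place of 13 and 9 cancer-testis antigens in place of 4. With replicate 1 left out, the numbers of detected members of the 10 lists were those given above, and the melanocyte lineage list had 9 without replicate 2 and 10 at 0.5 CPM. The CPM of 336 named genes moved by less than 1 SD under each scaling. The level per kilobase of 209 of them moved by more than 1 SD with the longest transcript as length. Leaving out 1 of 3 libraries cannot move a mean by 1 SD, so that check says nothing about how firm these levels are. Values under 0.1 CPM rest on a few reads, and a count of 0 allows up to 0.0699 to 0.105 CPM in a single library.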

Other observations

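A few genes of families in which at most 10% of the protein-coding members were detected had reads in every library, and all of these genes were chosen after their values were seen. Of 94 KRTAP genes, which encode hair keratin-associated proteins, 2 were detected. KRTAP2-3 had 122.6, 198.0 and 169.0 CPM and held rank 104 per kilobase, and KRTAP1-5 had 2.51 ± 0.321 CPM (SD, n = 3). TMPRSS15, the intestinal protease enteropeptidase, had 72.83, 73.36 and 72.27 CPM, nearly the same in each library. The chemokine CCL28 had 19.5 ± 1.81 CPM, the potassium channel KCNK2 15.2 ± 1.26 CPM, and the cancer-testis genes CT45A10 and CT55 8.06 ± 0.915 and 10.7 ± 1.12 CPM.

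Of 55 keratin (KRT) genes, which encode the intermediate filaments of epithelia, 9 were detected (16.4%, against 54.1% of protein-coding genes) and 32 had 0 counts. The keratins named here were chosen after their values were seen. KRT18 had 70.04, 73.54 and 75.64 CPM and its usual partner KRT8 4.24, 4.773 and 5.786 CPM, and the 2 genes overlap on opposite strands in the annotation. KRT14 had 43.73, 39.54 and 42.49 CPM while KRT5, with which it pairs in skin, had 1, 0 and 1 counts. Of 13 cadherins looked at after their values were seen, 3 were detected: PCDH7 at 31.5 ± 6.26, CDH24 at 5.16 ± 1.12 and CDH11 at 3.99 ± 0.643 CPM.

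The genes that differed most between libraries, among those at a mean of 10 CPM or more, were MT-ATP6, MT-ND4, MT-CYB, MT-ND5, AC015813.1, AC021078.1, DDX39B, MALAT1, GOLGA4 and EGLN2. MT-ND4 had 115.6, 15.68 and 14.02 CPM and the nuclear RNA MALAT1 82.99, 54.38 and 37.59 CPM. Of these 10 genes 9 were highest in replicate 1 and GOLGA4 was lowest there, with 16.45, 33.79 and 30.82 CPM. For the mitochondrial genes among them, the filtering and counting of reads is unknown. Its part in their levels and differences was not tested.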
